A study of Mus musculus with 29 samples.

Results

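Immunity-related GTPases (IRGs) are interferon-induced proteins that act inside cells against bacteria and parasites living in vacuoles. The 9 genes described here, Irgm1, Irgm2, Igtp, Iigp1, Tgtp1, Tgtp2, Ifi47, Gm4951 and Gm4841, were chosen by name and found through their Ensembl identifiers among 54532 genes counted in colon RNA. All 9 passed the filter on low counts that left 18616 genes for testing (a mean of at least 3 counts over the mice). Gm4841, with a mean of 0.667 counts in the control mice, passed only through the models, where it is high, so its place in the counts of 9 below lends them no support. They were followed through 29 mice in 9 groups, 6 models of colitis and 3 untreated control groups, with each model set against its own controls. Total counts per mouse ran from 10725564 to 14977094.

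The labels call the wild-type controls Balb/C (n = 3), and Balb/C mice were also given 3% dextran sulfate sodium (DSS) in drinking water for 5 days with culling on day 10 (n = 3; the methods of the study name another strain and an earlier culling for DSS), or 3 mg dinitrobenzene sulfonic acid (DNBS) rectally in 200 µl of 50% ethanol (n = 3). A further Balb/C group carries the label of an IL10 blocking antibody (n = 4), for which the treatment text gives 750 µg of antibody against the IL-10 receptor and culling within 4 weeks, while the methods of the study describe Il10-/- mice. C57BL/6 Rag1-/- mice, which make no T or B cells, were left untreated (n = 3), were injected with 50 µg of agonistic anti-CD40 antibody and culled after 7 days (n = 3), or received naive CD4+ T cells (T cell transfer, TCT, n = 3). The treatment text gives culling after 6 to 8 weeks and Rag2-/- recipients, against Rag1-/- in the labels. TRUC mice are Balb/C Tbx21-/- x Rag2-/- animals with spontaneous colitis (n = 4), and their controls were untreated Balb/C Rag2-/- mice (n = 3). The TRUC mice lack Tbx21 and the controls do not, so loss of this T-box factor and colitis cannot be told apart in that comparison. No group given ethanol alone was analysed here, so effects of DNBS and of its vehicle cannot be told apart. In whole colon, more RNA per cell and more cells of a type cannot be told apart either.

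Several libraries went against their labels. H2-Ea-ps, the annotation's entry for the class II gene H2-Ea, which is silent in C57BL/6 mice, had between 784 and 3956 counts in every mouse of the Rag1-/- control, anti-CD40, Rag2-/- control and TRUC groups. It had 0 or 1 count in every wild-type, DSS, DNBS, IL-10 blockade and TCT mouse, although the first 4 of these are labelled Balb/C. Rag1 had 20 to 33 counts in TCT mice and at most 4 in the Rag1-/- controls, and Rag2 had 0 counts in TCT mice against 6 to 20 in those controls. Rag2 also had 48 to 99 counts in anti-CD40 mice, 57 to 94 in TRUC mice and 15 to 25 in Rag2-/- controls. It had at most 1 in wild-type, DSS, DNBS and IL-10 blockade mice. At Rag2 and H2-Ea-ps the control and anti-CD40 mice labelled Rag1-/- were thus like the mice labelled Rag2-/-. Reads of a disrupted gene can come from outside the deleted part, so these counts do not check a knockout by themselves (Tbx21 had 26 to 52 counts in TRUC mice). Since the TCT mice and their labelled controls differed at H2-Ea-ps, the TCT results of the members are also given against the other control groups, with the main changes in the other lists. The markers of colonic epithelium Epcam, Cdx2, Krt20, Slc26a3, Car1, Muc2 and Vil1 summed to between 3846 and 15391 CPM over the mice, a CPM being a count scaled by TMM to a common library total.

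IRG proteins fall into regulators and effectors. The regulators Irgm1, Irgm2 and Igtp (also called Irgm3) hold the effectors inactive on the membranes of the cell itself, and Irgm1 has further been tied to autophagy and mitochondria. The effectors Iigp1 (Irga6), Tgtp1 and Tgtp2 (Irgb6) and Ifi47 (Irgd) gather on the vacuoles of pathogens and break them. Interferon-gamma is their best known inducer, through gamma-activated sites and through interferon regulatory factors at interferon-stimulated response elements. The human family is reduced, and its member IRGM has been linked to Crohn's disease.

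Promoter stretches are shown for the 5 members on chromosome 11 in which the first motif named below was found. Whether these motifs bear on the change of the members was not tested. The RefSeq promoter table (GRCm38.p6, 250 bases before to 50 after each start) was searched on both strands for the core of the interferon-stimulated response element (ISRE; GAAA, any 2 bases, GAAA), and for TTCNNNGAA, the core of the gamma-activated site. Stretches of 60 bases around the first ISRE core are printed 5′ to 3′ on the strand of the gene, with matches in capitals.
Irgm1, chr11:48871425-48871484, minus strand: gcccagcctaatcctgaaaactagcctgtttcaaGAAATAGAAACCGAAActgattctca
Tgtp1, chr11:48992298-48992357, minus strand: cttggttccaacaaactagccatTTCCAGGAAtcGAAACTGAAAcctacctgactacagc
Tgtp2, chr11:49064257-49064316, minus strand: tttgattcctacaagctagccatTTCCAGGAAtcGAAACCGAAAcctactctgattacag
Igtp, chr11:58199488-58199547, plus strand: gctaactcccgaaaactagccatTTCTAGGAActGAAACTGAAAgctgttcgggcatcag
Irgm2, chr11:58214879-58214938, plus strand: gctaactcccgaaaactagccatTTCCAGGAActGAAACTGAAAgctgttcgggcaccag
The ISRE core began 30 bases before the RefSeq start in Irgm1, where a second match overlapped it, 77 in Tgtp1, 70 in Tgtp2, 34 in Igtp and 64 in Irgm2. In the latter 4 a TTCNNNGAA ended 2 bases before it, and a run of 11 bases reaching into that site (ctagccatttc) was shared by all 4. The Ifi47 window held neither motif, which says only that these letters were not in that stretch. Over all 32851 promoters of the table, 3.44% held the ISRE core, 8.3% held TTCNNNGAA and 0.454% held both.

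Of the 9 genes, 6 lie on chromosome 11 and 3 on chromosome 18 (GRCm38, GENCODE annotation). Irgm1 (chr11:48861968-48871683), Tgtp1 (chr11:48985327-48994172) and Tgtp2 (chr11:49057194-49064206) are on the minus strand. Ifi47 (chr11:49076587-49096974), Igtp (chr11:58199556-58207591) and Irgm2 (chr11:58199618-58222782) are on the plus strand, and the gene models of Igtp and Irgm2 overlap. On chromosome 18, Gm4951 (chr18:60212080-60247820) and Iigp1 (chr18:60376027-60392634) lie on the plus strand and Gm4841 (chr18:60268305-60273272) between them on the minus strand. Tgtp1 and Tgtp2 are near copies: 81.2% of the 50-base windows of Tgtp1 exons and 86.6% of those of Tgtp2 occur in another gene, so their separate values are uncertain. In the other 7 members this share was between 0.379% (Irgm1) and 11.8% (Igtp, with Irgm2). The promoter stretches above follow RefSeq starts, and those of Irgm1, Tgtp1 and Irgm2 lie inside the GENCODE gene models given here. Promoters of the 3 chromosome 18 members are not shown.

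In healthy colon the regulators were the most abundant members and the effectors were scarce. On RPKM, which divides by exon length and library total and is the scale used here for levels between genes, Irgm1, Irgm2 and Igtp led in each control group, with means over the 9 control mice of 7.45, 6.51 and 5.54. Ifi47 followed at 2.09 and Iigp1 at 1.32. Tgtp2 (0.78), Gm4951 (0.354) and Tgtp1 (0.199) were lower, and Gm4841 had at most 2 counts in any control mouse. In all 6 models the order was another one: Igtp had the highest mean RPKM, from 60.9 in DNBS to 162 in IL-10 blockade, and Gm4841 kept the last place, with 2.57 to 6.86.

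Without colitis, whether members passed between Rag2-/- and wild-type controls depended on the mice in the fit. These groups also differed at H2-Ea-ps (784 to 1462 counts against 0 or 1), so Rag2 genotype and mouse background cannot be told apart. The 9 together made up between 86.0 and 104 CPM in the 9 control mice. Without a call in either direction, none of the 9 passed the test between Rag2-/- and wild-type controls (edgeR quasi-likelihood test, Benjamini-Hochberg adjusted p from 0.717 to 0.985, 0 at an unadjusted p under 0.05), where 3.25% of all genes were higher and 4.86% lower. Every Rag2-/- mouse lay below every wild-type mouse for 4 members, namely Iigp1, Tgtp1, Tgtp2 and Gm4951 (log2 -0.84, -1.33, -0.62 and -1.08), and above for Irgm1 (0.35), while 18.9% of all genes lay below and 18.9% above in this way. In edgeR on these 6 mice alone, chosen after the values were seen, Irgm1 was higher (log2 0.32, adjusted p = 0.0378) and Iigp1 (-0.86, 0.00823), Tgtp1 (-1.35, 0.0405) and Gm4951 (-1.11, 0.0466) were lower, and DESeq2 called Irgm1 and Iigp1. Among all genes, these fits called more than the fit of all mice: 1621 higher and 2093 lower with edgeR, and 1588 and 1830 with DESeq2. DESeq2 gave no adjusted p for Gm4841 here. No member passed between Rag1-/- and Rag2-/- controls (edgeR adjusted p from 0.944 to 1, 0 unadjusted), with 0.0698% of all genes higher and 0.0537% lower. On those mice alone none of the 9 passed with edgeR, which called 225 of all genes higher and 220 lower. DESeq2 on those mice called 571 and 462, and none of the 5 members to which it gave an adjusted p. It gave no adjusted p for Tgtp1, Tgtp2, Gm4951 and Gm4841, so these could not pass. Between Rag1-/- and Rag2-/- controls all 9 overlapped, where 12.1% of all genes lay above and 12.1% below. The log2 differences of these scarce genes were imprecise, with standard errors up to 3.58 and 4.00 for Gm4841.

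In colitis the family rose as a block. All 9 members were higher than in the matched controls in 5 models, IL-10 blockade, DSS, TCT, TRUC and anti-CD40, and 8 of 9 were higher in DNBS mice. Among all genes, 27.2% were higher in IL-10 blockade, 22.4% in TRUC, 17.7% in DSS, 16.1% in TCT, 10.9% in anti-CD40 and 3.95% in DNBS. The fitted change was positive for 9 of 9 members in each of the 6 models. Every model mouse lay above every control mouse for 9 members in each model but DNBS, where this held for 7 (28.8%, 25.9%, 27.6%, 21.4%, 19.2% and 15.6% of all genes in TRUC, DSS, IL-10 blockade, TCT, anti-CD40 and DNBS). The median log2 fold change of the members was highest with IL-10 blockade (5.43) and TCT (5.42), followed by anti-CD40 (4.97), DSS (4.76), TRUC (4.74) and DNBS (3.43), while the median over all genes stayed between -0.03 and 0.02. DSS, DNBS and IL-10 blockade share the wild-type controls, and TCT and anti-CD40 share the Rag1-/- controls.

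**Figure D1:**
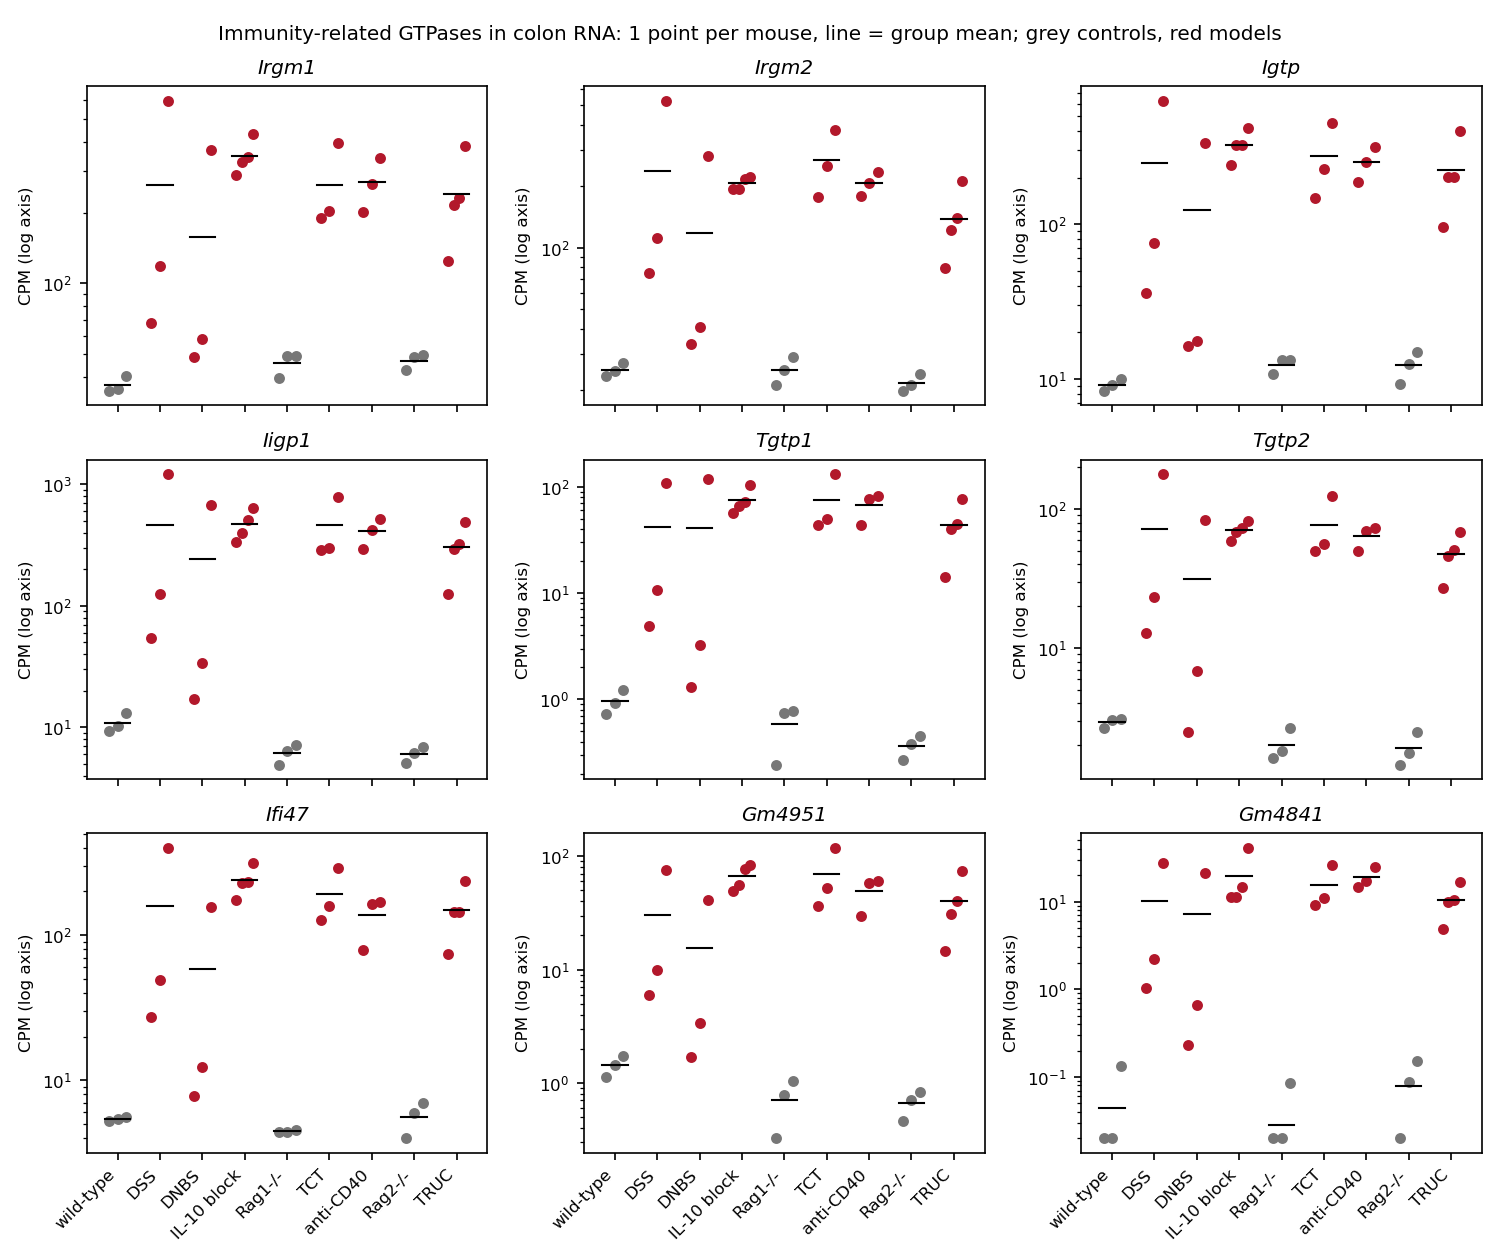
Level of each member in every mouse, in CPM on a log axis, with 1 point per mouse, a line at the group mean, control groups in grey and models in red. Points at 0 are drawn at the bottom of the Gm4841 panel. In the DSS and DNBS columns a single mouse stands far above the other 2, while the IL-10 blockade, TCT, anti-CD40 and TRUC mice lie together well above the controls.

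Irgm1, which led the resting levels over the control mice, had the smallest change of the 9 in 5 models, with Irgm2 below it in IL-10 blockade. It stood at 40.4, 34.9 and 35.4 CPM in wild-type mice, 49.3, 39.7 and 49.1 in Rag1-/- controls, and 49.7, 48.5 and 42.7 in Rag2-/- controls. The IL-10 blockade mice had 346, 328, 288 and 432 CPM, the TRUC mice 215, 384, 231 and 125, the TCT mice 202, 190.4 and 396, and the anti-CD40 mice 265, 342 and 202. None of these overlapped with its controls. The DSS mice had 118, 67.6 and 599 CPM and the DNBS mice 58.0, 48.4 and 368, so that in both the third mouse carried most of the mean. The fitted change was 9.44-fold in IL-10 blockade (log2 3.24, SE 0.66, edgeR adjusted p = 0.000301), 7.08-fold in DSS and 5.09-fold in TRUC (adjusted p = 0.00219 and 0.00415), and 4.28-fold in DNBS, which missed the threshold (log2 2.10, SE 0.65, adjusted p = 0.0537).

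Igtp, a regulator kept on the endoplasmic reticulum and lipid droplets, began lower and ended higher. Wild-type mice had 9.07, 8.33 and 10.0 CPM, Rag1-/- controls 13.1, 13.1 and 10.7, and Rag2-/- controls 15.0, 9.18 and 12.4. The level was 327, 326, 239.6 and 415 CPM in IL-10 blockade, 228, 146 and 449 in TCT, 253, 316 and 187 in anti-CD40, and 203, 398, 202 and 95.6 in TRUC. DSS mice had 75.0, 35.8 and 629.8 CPM and DNBS mice 17.5, 16.3 and 336. No model mouse, DNBS mice 11 and 14 included, fell to the level of its controls. Igtp rose 35.8-fold in IL-10 blockade (edgeR adjusted p = 0.000196), 27.0-fold in DSS, 22.3-fold in TCT, 20.4-fold in anti-CD40, 18.5-fold in TRUC and 13.5-fold in DNBS (adjusted p from 0.000880 to 0.0239). Irgm2, the Golgi-bound regulator, resembled Irgm1 in size of change, with log2 fold changes from 2.23 (DNBS) to 3.42 (TCT).

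Iigp1, the effector most studied on Toxoplasma vacuoles, was scarce in controls and abundant in colitis. Its control levels were 10.2, 9.26 and 13.1 CPM in wild-type mice, 4.95, 7.15 and 6.45 in Rag1-/- controls and 6.20, 5.13 and 6.87 in Rag2-/- controls. IL-10 blockade mice had 504, 399, 338 and 635 CPM, TCT mice 300.4, 287 and 790.3, anti-CD40 mice 424, 519 and 291, and TRUC mice 295, 486, 323 and 126. DSS mice had 126, 54.3 and 1208 CPM, and DNBS mice 33.6, 17.1 and 679. All 20 model mice were above all 9 control mice. The fold change ran from 22.4 in DNBS to 74.1 in TCT, where it was log2 6.21 (SE 1.16, edgeR adjusted p = 0.000244).

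Ifi47 had the tightest controls of the effectors, at 5.26, 5.39 and 5.58 CPM in wild-type, 4.38, 4.42 and 4.56 in Rag1-/- and 5.93, 3.98 and 6.95 in Rag2-/- mice. It reached 230.2, 233, 176 and 314 CPM in IL-10 blockade, 159, 127 and 289.7 in TCT, 163, 170.2 and 78.9 in anti-CD40 and 145, 237, 143 and 74.5 in TRUC. DSS mice had 49.4, 27.2 and 399 CPM and DNBS mice 12.3, 7.75 and 155. Each model mouse thus exceeded its controls, DNBS mouse 14 by the least. The rise was 44.0-fold in IL-10 blockade (log2 5.46, SE 0.96, edgeR adjusted p = 6.98e-05) and 10.7-fold in DNBS (log2 3.43, SE 0.91, adjusted p = 0.0276).

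Of the Tgtp pair, Tgtp1 rose from near the detection limit (3 to 15 counts in the control mice) and Tgtp2 from 19 to 40 counts. The caution holds that the copies share most of their sequence. Tgtp1 lay between 0.243 and 1.23 CPM in the controls and between 1.32 and 131 in the model mice, and Tgtp2 between 1.45 and 3.12 and between 2.48 and 178. Tgtp1 had log2 fold changes of 5.41 (DNBS) to 6.97 (TCT) and Tgtp2 of 3.39 (DNBS) to 5.23 (TCT). With both left out, 7 of 7 members were higher in TRUC, DSS, IL-10 blockade, TCT and anti-CD40. Tgtp2 was 1 of 2 members whose DNBS mice overlapped with the wild-type mice, Gm4951 being the other.

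The 2 predicted IRG genes next to Iigp1 behaved like it. Gm4951 lay between 0.324 and 1.72 CPM in controls and between 1.71 and 119 in model mice, with log2 fold changes of 3.41 (DNBS) to 6.57 (TCT). Gm4841 had 0, 2 and 0 counts in wild-type mice, 0, 0 and 1 in Rag1-/- controls and 1, 0 and 2 in Rag2-/- controls. It had 174, 108, 130 and 391 counts in IL-10 blockade, 181, 290 and 206 in anti-CD40, 104, 129 and 279 in TCT, 135, 187, 113 and 60 in TRUC, 35, 15 and 342 in DSS, and 11, 3 and 246 in DNBS. Only DNBS mouse 14 was as low as 3 counts, the level that a count of 0 allows. The controls summed to 1 to 3 counts, so the ratio of summed counts per library total was imprecise: 379 in IL-10 blockade (exact 95% interval 105 to 3137, counting error only), 701 in anti-CD40 (125 to 27729), 566 in TCT (101 to 22404) and 129 in TRUC (44.0 to 629). In DSS it was 184 (50.5 to 1523), and 33.0 (8.68 to 280.3) without mouse 8. In DNBS it was 127 (34.7 to 1052), and 9.52 (2.19 to 86.3) without mouse 16. Its fitted values rest on single control counts: without wild-type mouse 2 the DSS value went from log2 7.41 to 9.97, that of IL-10 blockade from 8.35 to 10.9 and that of DNBS from 6.91 to 9.47. Without Rag1-/- control mouse 4 the TCT value went from 8.70 to 10.6 and the anti-CD40 value from 9.01 to 10.9, and without Rag2-/- control mouse 4 the TRUC value went from 6.86 to 7.67.

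**Figure D2:**
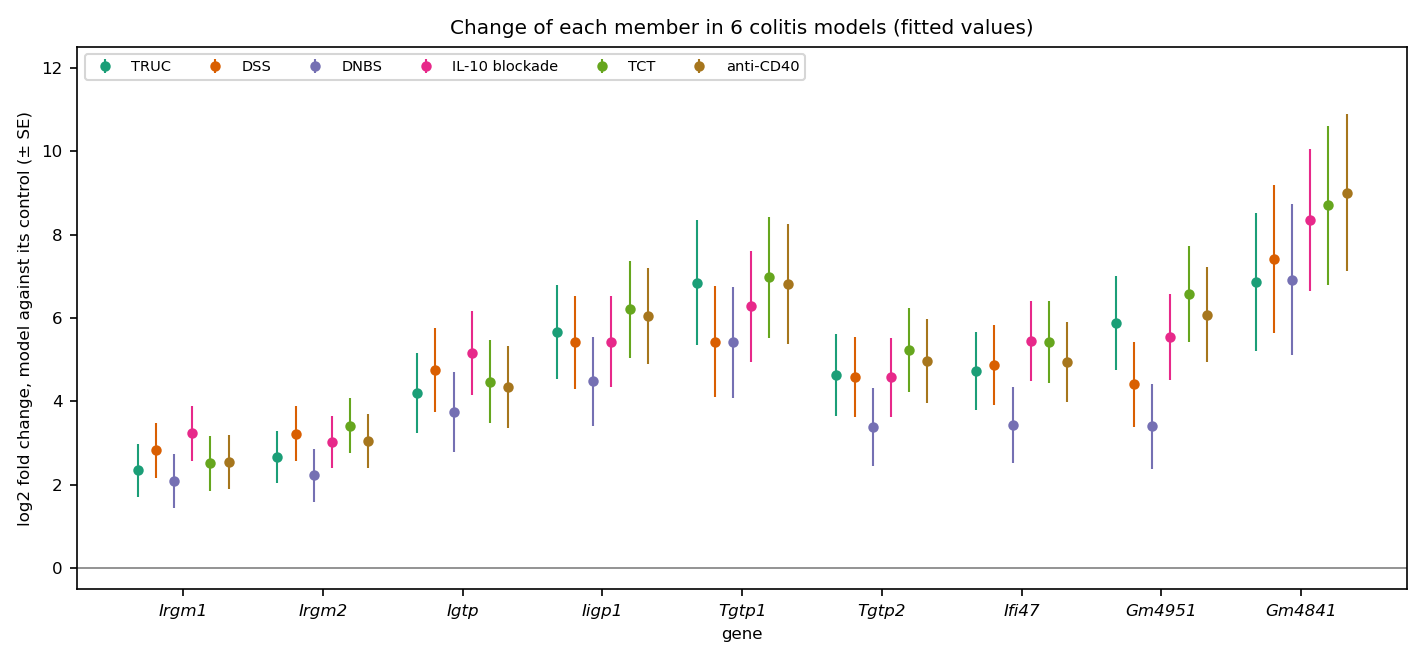
Fitted log2 fold change of each member in the 6 models against their controls, with bars of 1 SE from edgeR. The regulators Irgm1 and Irgm2 have the smallest values in every model, and the DNBS value is the lowest of the 6 models for 8 members; the Gm4841 values depend on control counts of 0 to 2 and are no bounds.

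The TCT and anti-CD40 calls were the same against other control groups. Only the wild-type controls were like the TCT mice at H2-Ea-ps, with 0 or 1 count, while the Rag2-/- controls had 784 to 1462. All 9 members were higher in TCT mice than in wild-type controls (edgeR, 16.9% of all genes higher) and than in Rag2-/- controls (17.4%), with median log2 fold changes of 5.14 and 5.33. The values that moved by more than 1.5 times against wild-type controls were Iigp1 (log2 5.40 in place of 6.21), Tgtp1 (6.29 in place of 6.97), Gm4951 (5.60 in place of 6.57) and Gm4841 (8.01 in place of 8.70). Against Rag2-/- controls they were Tgtp1 (7.62) and Gm4841 (7.41). All 9 were also higher in anti-CD40 mice than in Rag2-/- controls (12.4% of all genes), with a median of 5.07, and there Tgtp1 went from 6.82 to 7.46 and Gm4841 from 9.01 to 7.72.

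Single mice carried most of the change in DSS and DNBS. Summed over the 9 members, DSS mouse 8 had 3752 CPM against 525 and 285 in mice 5 and 6, and DNBS mouse 16 had 2084 against 176 and 129 in mice 11 and 14. Each of these mice was the highest of its group for 9 of 9 members, DSS mouse 8 by 5.65 (Irgm2) to 16.9 times (Gm4841) the mean of the other 2, and DNBS mouse 16 by 6.91 (Irgm1) to 52.3 times (Tgtp1). In the members not yet given by mouse, DSS mouse 8 had 525 CPM of Irgm2, 109 of Tgtp1, 178 of Tgtp2 and 75.7 of Gm4951, against at most 111, 10.6, 23.2 and 10.0 in the other DSS mice. DNBS mouse 16 had 281 CPM of Irgm2, 119 of Tgtp1, 84.1 of Tgtp2 and 41.1 of Gm4951, against at most 40.8, 3.22, 6.87 and 3.40 in the other DNBS mice. The remaining DSS mice were still above every wild-type mouse for all 9 members, with median folds over the control mean of 8.21 in mouse 5 and 4.37 in mouse 6. DNBS mouse 11 was above every wild-type mouse for 9 members with a median of 2.33 times, and DNBS mouse 14 for 7 members with a median of 1.37 times.

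What remained without that mouse was more in DSS than in DNBS. Without DSS mouse 8 the median log2 fold change of the members went from 4.76 to 2.61, and 5 of 9 stayed past the threshold, namely Irgm2, Igtp, Iigp1, Tgtp2 and Ifi47 (edgeR adjusted p from 0.0119 to 0.0271). The other 4 kept their direction at log2 1.33 (Irgm1, adjusted p = 0.0889), 3.02 (Tgtp1, 0.0922), 2.48 (Gm4951, 0.0632) and 4.78 (Gm4841, 0.0776). Without both DSS mouse 8 and DNBS mouse 16, a fit chosen after the values were seen, all 9 passed in DSS with fold changes that stayed low (log2 1.33 to 4.78, edgeR adjusted p from 7.12e-05 to 0.00711). In DNBS the median without mouse 16 went from 3.43 to 0.89 and none of the 9 passed (edgeR adjusted p from 0.469 to 0.726, 0 at an unadjusted p under 0.05). Without wild-type mouse 1, 2 or 4 the DNBS fold changes stayed large (log2 2.06 to 9.47, against 2.10 to 6.91 with all mice) and all 9 had an unadjusted p under 0.05, but none passed (edgeR adjusted p from 0.0526 to 0.158). All 9 passed without DNBS mouse 11 or 14.

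**Figure D3:**
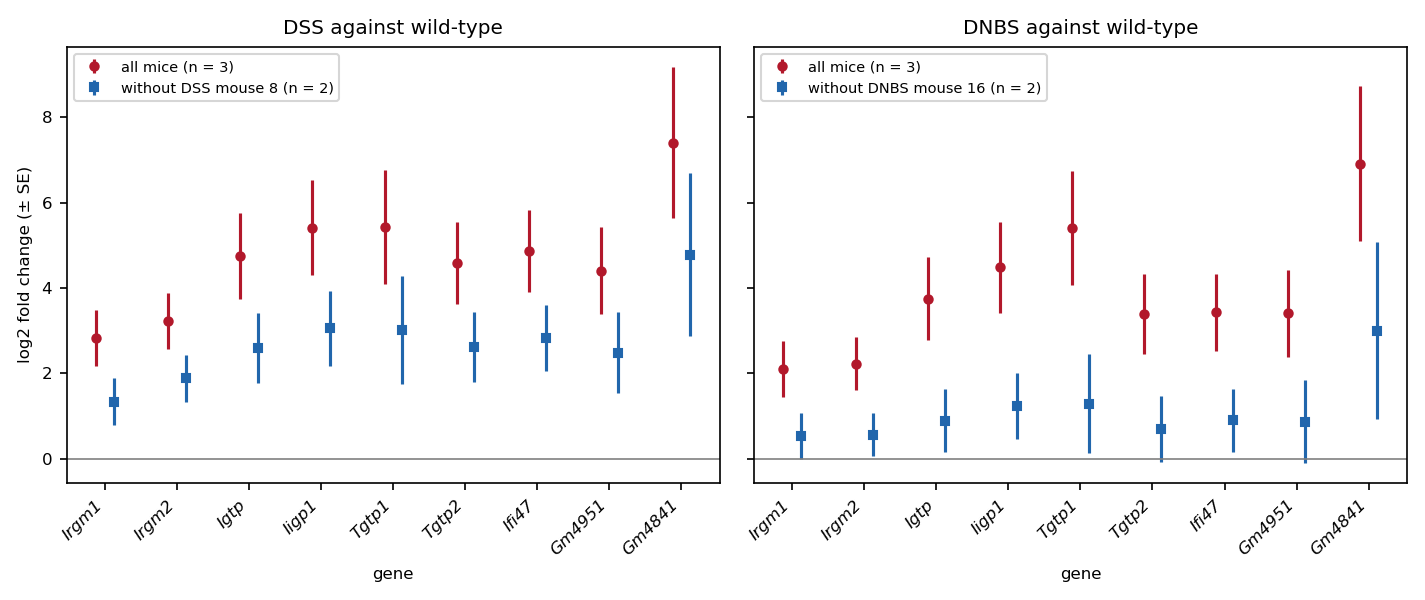
Fitted log2 fold change of each member against wild-type controls, with bars of 1 SE, from all mice (circles) and without DSS mouse 8 or DNBS mouse 16 (squares). The values without the high mouse lie lower for all 9 members in both models, and in DNBS they fall to between 0.53 and 3.00.

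The other groups had a smaller spread. TRUC mouse 3 was the highest of its group for 9 members (summed 1953 CPM) and TRUC mouse 5 the lowest for 9 (561), and anti-CD40 mouse 7 the highest for 9 (1822, against 1532 and 1075). TCT mouse 5 had 2702 CPM against 1307 and 1069, was the highest for 9 members and stood 1.77 (Irgm2) to 2.80 times (Tgtp1) above the mean of the other 2. Without it all 9 members were still higher, with Iigp1 at log2 5.57, Tgtp1 at 6.30, Gm4951 at 5.94 and Gm4841 at 8.10 in place of 6.21, 6.97, 6.57 and 8.70. For Irgm2, Tgtp1, Tgtp2 and Gm4951, TCT mouse 5 had 377, 131, 125 and 119 CPM, TRUC mouse 3 had 212, 76.9, 67.9 and 74.8, and anti-CD40 mouse 7 had 234, 82.4, 73.7 and 60.0. The IL-10 blockade mice lay between 1419 and 2239 CPM and did not share an order: mouse 4 was the highest for 5 members and mouse 1 for 4.

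The test of whether the change differed between the 6 models gave opposite answers with and without the single high mice. With all mice none of the 9 members differed (edgeR F test of equal contrasts, adjusted p from 0.185 to 0.897, 0 at an unadjusted p under 0.05), against 60.5% of all genes. Without DNBS mouse 16 all 9 differed (adjusted p from 0.00213 to 0.0145), and without DSS mouse 8 only Ifi47 and Gm4951 did. Without both, a fit chosen after the values were seen, all 9 differed (adjusted p from 1.01e-06 to 2.75e-05), with median log2 fold changes of 0.89 in DNBS, 2.61 in DSS and 4.73 to 5.44 in the other 4 models. A call here is common among all genes: 11262 differed with all mice, and 10614 to 11657 when single mice were left out. The all-gene count of the fit without both mice is not given here. Ordered by mean CPM, DNBS was the lowest model group for each member, IL-10 blockade the highest for 5 and TCT for 4, and 6 to 8 of the 8 neighbouring pairs of groups overlapped in their mice.

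Interferon-gamma itself followed the same mice. Ifng had 0 or 1 count in each of the 9 control mice. It had 594 counts in DSS mouse 8 against 7 and 2 in DSS mice 5 and 6, and 37 in DNBS mouse 16 against 2 and 0 in DNBS mice 11 and 14. The mice with the highest member levels of these groups were also those with the most Ifng. Counts were 45, 51 and 75 in TCT, 38, 27, 34 and 67 in IL-10 blockade, 20, 35, 29 and 11 in TRUC, and 8, 19 and 5 in anti-CD40 mice. In TCT, TRUC, IL-10 blockade and anti-CD40 as well, the mouse with the most Ifng had the highest summed members (TCT 5, TRUC 3, IL-10 blockade 4, anti-CD40 7). Ifng rose in TRUC, DSS, IL-10 blockade and TCT and did not pass in anti-CD40 or DNBS (edgeR adjusted p = 0.156 and 0.230). Since the Rag1-/- controls were all at 0, the fold over 3 counts per library is a bound, at least 3.79 for anti-CD40 mice and at least 21.1 for those of TCT. The other controls summed to 1 count, and the ratio of summed counts was 74.4 in TRUC (exact 95% interval 13.04 to 2970), 157 in IL-10 blockade (27.8 to 6229), 38.0 in DNBS (6.43 to 1540) and 565 in DSS (101 to 22364). Without DSS mouse 8 the DSS ratio was 11.9 (1.65 to 521) and Ifng no longer passed (edgeR adjusted p = 0.272), and without DNBS mouse 16 the DNBS mice had no more than 2 counts. Ifnb1 had 8 counts in DSS mouse 8 and at most 1 elsewhere, and the interferon-lambda genes Ifnl2 and Ifnl3 at most 1 in any mouse.

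**Figure D4:**
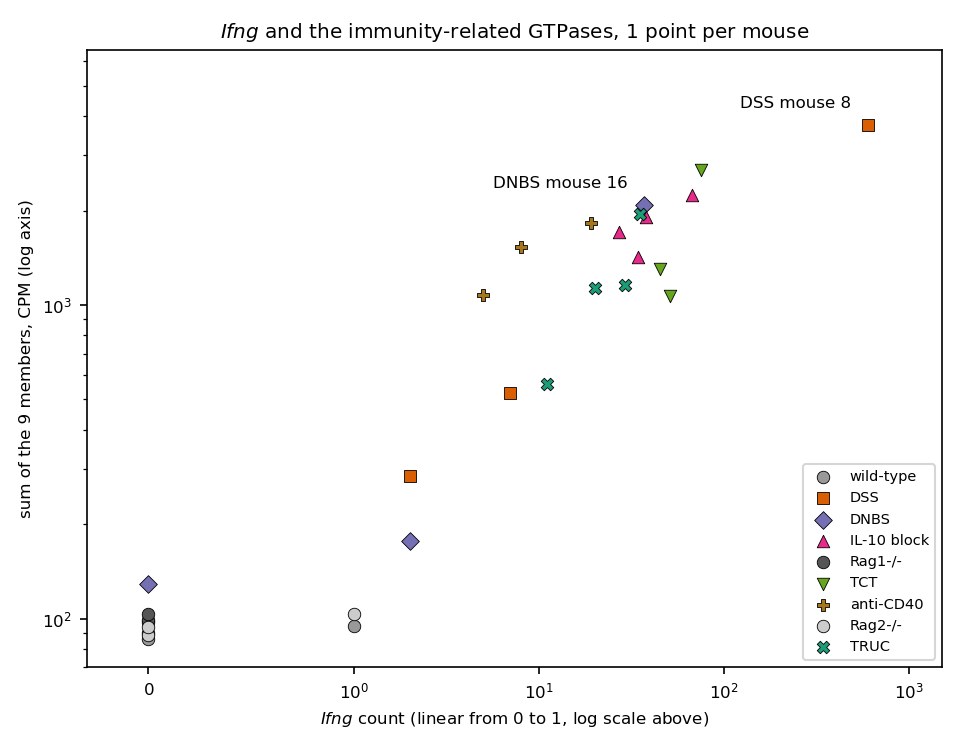
Count of Ifng (linear from 0 to 1, then log) and summed CPM of the 9 members (log axis), 1 point per mouse with a symbol per group. Control mice sit at 0 or 1 Ifng count and 86.0 to 104 CPM, and DSS mouse 8 is the farthest point at 594 counts and 3752 CPM; anti-CD40 mice reach 1075 to 1822 CPM at 5 to 19 counts.

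Member levels were high in mice with few T cell reads as well as in mice with many. The T cell receptor gene Cd3e had 0 to 2 counts in TRUC and 0 or 1 in anti-CD40 mice, the same as in their controls, against 61 to 119 in TCT and 39 to 100 in IL-10 blockade mice. The 6 T cell markers summed to 7.24 to 9.07 CPM in TRUC mice (4 of 6 higher, Cd3e not among them) and 4.23 to 6.26 in anti-CD40 mice (0 of 6 higher), with 2.30 to 5.97 in Rag2-/- and 3.49 to 4.94 in Rag1-/- controls, 96.2 to 176 in TCT mice and 73.9 to 128 in IL-10 blockade mice. The NK and innate lymphoid markers (Ncr1, Klrb1c, Nkg7, Gzmb) summed to 8.47 to 13.2 CPM in TRUC and 11.9 to 13.9 in anti-CD40 mice, against 1.33 to 2.87 in Rag2-/- and 1.81 to 2.27 in Rag1-/- controls. They summed to 46.5 to 59.5 CPM in IL-10 blockade mice, against 1.27 to 1.98 in wild-type controls, and to 38.7 to 49.7 in TCT mice. The markers did not all follow their sum: 3 of 4 were higher in TRUC and IL-10 blockade and 2 in TCT and anti-CD40 (edgeR). Ncr1 stood at 0.427 to 0.649 CPM in TCT mice, below their Rag1-/- controls (0.861 to 1.30). It stood at 0.312 to 1.12 CPM in IL-10 blockade (0.133 to 0.457 in wild-type controls), 4.15 to 6.87 in TRUC and 2.51 to 3.77 in anti-CD40 mice. Macrophage and monocyte markers were higher for 6 of 6 genes in TRUC and DSS, 5 in TCT, 3 in IL-10 blockade, 1 in anti-CD40 and 0 in DNBS (edgeR), and neutrophil markers for 5 of 5 in each model but anti-CD40, with 4. The summed macrophage and monocyte markers were nevertheless above every control in anti-CD40 (552 to 594 CPM, against 121 to 168 in Rag1-/- controls) and in DNBS mice (226 to 285, against 151 to 187 in wild-type controls). Within DSS, mouse 8 had 44.1 CPM of NK and innate lymphoid markers against 9.25 and 7.59, 1467 CPM of 6 macrophage and monocyte markers against 393 and 425, and 1715 CPM of 5 neutrophil markers against 183 and 332. DNBS mouse 16 had 15.7 CPM of NK and innate lymphoid markers against 3.70 and 1.47, but 285 of macrophage markers against 226 and 246, and 58.9 of neutrophil markers against 21.9 and 103. The 7 epithelial markers summed to 4480 CPM in DSS mouse 8 (3846 and 5557 in the others) and to 5274 in DNBS mouse 16 (4332 and 4560). In IL-10 blockade mice they summed to 6424 to 15391 CPM, against 4484 to 5442 in wild-type controls, with 5 of 7 higher and 1 lower (edgeR). The part of these cells in the member levels was not tested.

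Across the mice the members moved together. Over the 29 mice the 36 pairs of members had Pearson correlations of log2 CPM from 0.960 to 0.996 (median 0.983), and after subtraction of group means from 0.912 to 0.986 (median 0.964). These are descriptions, since the mice share groups and the Tgtp pair shares reads. The 5 other genes most like the mean of the standardized members over 29 mice were Cxcl9 (r = 0.993), Tap1 (0.984), Nlrc5 (0.981), Gm12185 (0.980) and Il18bp (0.980), and after subtraction of group means Gbp4, Gm12250, Cxcl9, Gbp6 and Tap1 (0.989 to 0.970). Cxcl9 is a T cell chemokine, Tap1 a peptide transporter of antigen presentation, Nlrc5 the transactivator of class I genes, and Il18bp the secreted inhibitor of interleukin-18. Gm12185 overlaps the Tgtp1 gene model and is uncertain for that reason.

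The rest of the family moved only in part. Of 7 further IRG genes listed, 6 were tested, and 5 were higher in TRUC, DSS and TCT, 4 in anti-CD40, 3 in IL-10 blockade and 2 in DNBS, with none lower. Gm12250 rose in all 6 models (log2 7.39 in IL-10 blockade, 7.23 in DSS, 5.97 in DNBS, 5.70 in TCT, 5.51 in anti-CD40 and 4.32 in TRUC), and Gm5431 did too (2.05 to 4.60). Gm12250 had 206.7 CPM in DSS mouse 8 against 23.0 and 10.5, and 93.2 in DNBS mouse 16 against 4.36 and 3.41, with 0.400 to 0.610 in wild-type mice. Without the high mouse it stayed higher in DSS (log2 4.98, edgeR adjusted p = 0.00369) and did not pass in DNBS (2.88, adjusted p = 0.209), where Gm5431 did not either (1.42, 0.286), and 4 of the 6 genes passed in DSS and 0 in DNBS (2 at an unadjusted p under 0.05). Irgq, the distant family member not known as an interferon target, passed in 0 models (log2 -0.33 to 0.17, edgeR), although it was higher in anti-CD40 mice than in Rag2-/- controls (0.46). 9930111J21Rik1 and 9930111J21Rik2 rose in TCT (2.80 and 2.60) and stood at 0.54 and 0.39 in IL-10 blockade without passing. Against wild-type controls 4 of the 6 genes were higher in TCT, with 9930111J21Rik1 at 1.41 not passing, and 5 against Rag2-/- controls.

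Upstream, the receptors changed little and the transcription factors rose. Of 6 interferon receptor genes at most 3 were higher in a model (TRUC), and Ifngr2 fell in DSS (log2 -0.67) while the medians of the list stayed between -0.05 and 0.43. Of 12 kinases and factors 11 were higher in DSS and IL-10 blockade, 10 in TRUC, 9 in anti-CD40, 7 in TCT and 2 in DNBS (Irf9 and Nlrc5). The TCT count was 10 against wild-type and 9 against Rag2-/- controls. Without DSS mouse 8 the DSS count was 4, with Irf9 (log2 1.23) and Nlrc5 (2.84) among them, and without DNBS mouse 16 the DNBS count was 0 (edgeR, 1 at an unadjusted p under 0.05). Irf1, an interferon-induced transcription factor, rose by log2 1.92 in IL-10 blockade, 1.47 in TCT, 1.35 in anti-CD40, 1.24 in DSS and 1.19 in TRUC, and stood at 0.84 in DNBS. In DSS the Irf1 rise was that of mouse 8, at 690 CPM against 185 and 167 in the other DSS mice and 139 to 160.4 in wild-type mice, and without it the value was 0.26 (edgeR adjusted p = 0.594). Irf7, the amplifier of type I interferon, rose in DSS (1.93) and IL-10 blockade (2.42) and stood at 0.13 in TRUC, -0.01 in TCT and 0.25 in anti-CD40, the 3 models compared with Rag-deficient controls. Against wild-type controls Irf7 was higher in TCT (1.36, edgeR adjusted p = 0.0321), and in DSS it did not pass without mouse 8 (0.88, adjusted p = 0.122). The feedback inhibitors Socs1 and Socs3 rose in all 6 models, Socs1 by log2 3.44 (DNBS) to 5.00 (TRUC). Socs1 had 65.0 CPM in DNBS mouse 16 against 5.14 and 4.81 in the other DNBS mice and 1.93 to 2.62 in wild-type mice. Without that mouse neither gene passed in DNBS (log2 1.13 for Socs1 and 1.40 for Socs3, edgeR adjusted p = 0.528 and 0.201), and without DSS mouse 8 Socs3 still passed in DSS (4.56) and Socs1 did not (2.09, adjusted p = 0.0640).

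Downstream, the guanylate-binding proteins, large GTPases that act at the same vacuoles, followed the members. All 11 were higher in DSS, IL-10 blockade and anti-CD40, 10 in TRUC and TCT, and 1 in DNBS (Gbp2, log2 3.25). Gbp2 missed the threshold in TRUC (log2 1.72) and Gbp2b stood at -1.44 in TCT without passing, but was higher there against wild-type controls (4.4), where all 11 passed, against 10 with Rag2-/- controls. Without DSS mouse 8 the DSS count was 5, and without DNBS mouse 16 Gbp2 stood at 0.90 and none of the 11 passed in DNBS (edgeR, 0 at an unadjusted p under 0.05). Of 9 other interferon-gamma targets, 9 were higher in DSS, IL-10 blockade, TCT and anti-CD40, 8 in TRUC and 6 in DNBS. Cxcl9 had 5 to 11 counts in the control mice and rose by log2 5.52 (DNBS) to 7.73 (DSS), and Ido1, which degrades tryptophan, by 7.07 (DSS) to 8.77 (anti-CD40). Cxcl9 stood at 85.6 CPM in DNBS mouse 16 against 3.34 and 1.94, and at 386 in DSS mouse 8 against 21.9 and 8.55. Ido1 stood at 315 CPM in DSS mouse 8 against 17.9 and 2.53, and at 367 in DNBS mouse 16 against 3.58 and 3.49. Without the high mouse Cxcl9 still passed in DSS (log2 4.55, edgeR adjusted p = 0.00646) and Ido1 did not (3.63, 0.141), and neither passed in DNBS (2.04 and 2.10, adjusted p = 0.486 and 0.596). Of the 9 targets, 7 then passed in DSS and 0 in DNBS (2 at an unadjusted p under 0.05), and in TCT 9 passed against either of the other control groups.

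The autophagy conjugation genes, whose products work with the IRG proteins at vacuoles, did not follow. Of 15 genes, 7 were higher and 3 lower in IL-10 blockade, 3 and 6 in TRUC, 1 and 5 in TCT (2 and 3 against wild-type, 0 and 5 against Rag2-/- controls), 2 and 1 in DSS (0 and 1 without mouse 8), and 1 and 3 in anti-CD40 (edgeR). Of the 18616 genes tested, 5058 were higher and 4858 lower in IL-10 blockade, 4163 and 4361 in TRUC, and 2991 and 2610 in TCT. In DSS these counts were 3299 and 3037, and in anti-CD40 2029 and 1986. In DNBS the 15 autophagy genes lay between log2 -0.34 (Map1lc3a) and 0.27 (Atg5) without passing. The median log2 fold changes of these 15 genes lay between -0.07 and 0.13, against 3.43 to 5.43 for the 9 members. Atg7, the activating enzyme of conjugation, fell in TRUC, DSS, IL-10 blockade, TCT and anti-CD40 (log2 -0.75, -0.38, -0.27, -0.49 and -0.47; in TCT it stood at -0.26 against wild-type controls without passing), and Atg5 rose in TRUC (0.54) and IL-10 blockade (0.65).

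**Figure D5:**
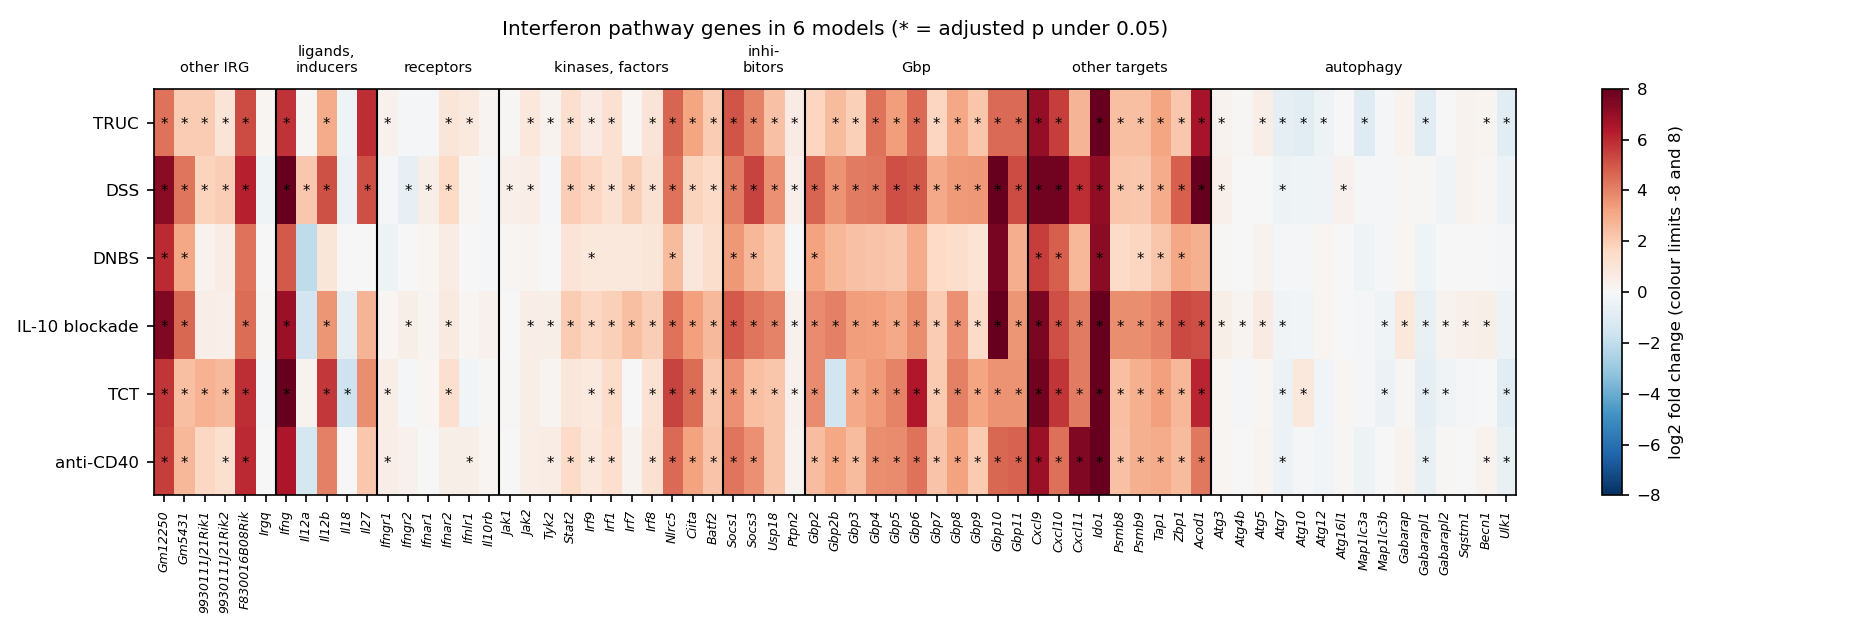
Fitted log2 fold change (colour) of genes of the interferon pathway and of autophagy conjugation in the 6 models, grouped by role, with a star at an adjusted p under 0.05. Guanylate-binding proteins and other targets are red in every model, except Gbp2b at -1.44 in TCT (4.4 against wild-type controls), with most stars of the former missing in DNBS, receptors stay near white, and the autophagy genes lie between log2 -1.03 (Map1lc3a in TRUC) and 0.83 (Atg10 in TCT).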

How the data were processed

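Poly(A) RNA of colon segments was sequenced, 1 library per mouse. The authors deposited raw counts per gene, whole numbers without normalization. The submitters' processing notes name Trimmomatic, HISAT2, HTSeq and GRCm38, and versions and strand setting are not given in the sources used here. Symbols were found for 54409 of 54532 identifiers, 92 spike-in entries summed to 0 counts and played no part, and no column of values was left out. No pair of mice within a group was identical (33 pairs, at least 3.65 times the sampling noise as chi-square per degree of freedom).

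Counts were analysed with edgeR 4.0.16 (R 4.3.3), Python 3.11 being used for tables. The filter required a mean of 3 or more counts per gene. After TMM scaling, 1 quasi-likelihood model with 9 groups and no covariate covered all 29 mice. P-values were Benjamini-Hochberg adjusted over 18616 genes at a threshold of 0.05. Each standard error is the absolute log2 fold change over the root of its F statistic. Levels are CPM on the TMM scale, RPKM divides them by exon length, and correlations used log2 CPM with a prior count of 2. A count of 0 allows up to 3 counts. Where controls summed to 1 to 3 counts, summed counts per TMM-scaled library total were set in ratio with an exact 95% conditional binomial interval, which covers counting error only. The labels do not say how mice of a group are related, so p-values measure the spread between these mice. Promoters came from RefSeq, found for 6 members outside chromosome 18. The script was tested on simulated counts.

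The members and lists were chosen with earlier results of these data known. Named by rule were all 9 members, genes of the role lists, the 5 genes most correlated with the members, and the mouse with the highest summed level in each group; 1 gene of the lists is counted but not reported here. The alternatives were RLE and upper quartile scaling, no filter, filterByExpr, DESeq2 1.42.0 and edgeR on the 2 groups alone, other controls, a replicate block and leaving out each mouse.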

Additional observations from a re-analysis of the deposited data

Results flagged for a closer look

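Gm4841 in the IL-10 blockade group stood out by its highest mouse. Mouse 4 had 40.9 CPM against 14.7, 11.2 and 11.2 in the other 3, a gap to its nearest neighbour that took up 0.882 of the range of the group and was past Dixon's 95% critical value for 4 samples. The value was the only one past it among 40 gaps (the highest and lowest mouse of TRUC and IL-10 blockade, for 9 members and their sum). By chance about 1 in 20 sets of 4 mice passes it when both ends are tested. Without this mouse the fitted change of Gm4841 went from log2 8.35 to 7.70 and still passed (edgeR adjusted p = 0.000984). Groups of 3 mice, DSS and DNBS among them, were too small for this test.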

How the results depend on the processing

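Scaling by RLE or upper quartile, no filter and filterByExpr left 9 of 9 members higher in TRUC, DSS, IL-10 blockade, TCT and anti-CD40 and none different between the models. The DNBS count of 8 was 0 with edgeR on the 2 groups alone, where 9 had an unadjusted p under 0.05, and 0 with DESeq2, which gave no p for 5 members and an unadjusted p under 0.05 for the other 4. Leaving out each mouse in turn gave between 0 and 9 members in DNBS, between 5 and 9 in DSS, and between 0 and 9 that differed between the 6 models, and left the other counts of members as they were. Of all genes, 10614 to 11657 differed between the models in these fits. Without DSS mouse 8 and DNBS mouse 16 together, added after seeing the data, 0 members were higher in DNBS (1 at an unadjusted p under 0.05) and 9 differed between the models. No called value reversed in direction. In DNBS, Irgm1 passed with no filter on low counts and Gm4951 no longer passed with upper quartile scaling. Upper quartile scaling moved the median log2 fold change of all genes from -0.03 to -0.14 in TRUC and from -0.01 to -0.18 in IL-10 blockade, with members at 4.63 and 5.27. Among all genes, those higher in DNBS went from 736 to 411 with edgeR on the 2 groups, 1105 with DESeq2 and between 151 and 1370 without single mice, those higher in DSS from 3299 to 1944 without DSS mouse 8, and those higher in anti-CD40 from 2029 to 929 without its mouse 7 and 1126 without Rag1-/- control mouse 3. Without single mice the genes lower in DNBS (412) ranged from 44 to 976, in DSS (3037, and 1928 with edgeR on the 2 groups) from 1897 to 3078, in TCT (2610) from 1731 to 2744 and in anti-CD40 (1986) from 820 to 2517. Between Rag2-/- and wild-type controls 605 higher and 905 lower genes became as few as 379 and 579, and between Rag1-/- and Rag2-/- controls 13 and 10 became 3 to 72 and 3 to 73. The replicate numbers shared by TRUC and Rag2-/- mice (2 and 4) and by IL-10 blockade and wild-type mice (1, 2 and 4) were not taken as pairs. Deviations of same-numbered mice correlated between -0.05 and 0.06, and 2 of 3 IL-10 blockade mice and 0 of 2 TRUC mice matched their own number best. With so few mice this check cannot tell whether same-numbered mice were related. A replicate block over these mice left 9 of 9 members higher in both. The numbers shared by Rag2-/- and wild-type mice (1, 2 and 4) and by Rag1-/- and Rag2-/- mice (2 and 4) were not taken as pairs either. There the correlations lay between -0.11 and 0.07, and 1 mouse in each comparison matched its own number best. With a replicate block, added after seeing the data, 1 member was higher and 2 were lower in Rag2-/- than in wild-type mice, against 1 and 3 without a replicate block on the same mice, and none passed between Rag1-/- and Rag2-/- mice. No paired analysis was possible because TCT, anti-CD40, DSS and DNBS each share fewer than 2 numbers with their controls. Between Rag2-/- and wild-type controls, edgeR on these 2 groups alone, added after seeing the data, gave 1 member higher and 3 lower and DESeq2 1 and 1, against 0 and 0 with all 9 groups. Among all genes these 2-group fits gave 1621 higher and 2093 lower (edgeR) and 1588 and 1830 (DESeq2). Depth limits Gm4841 and Tgtp1, whose control counts were at most 2 and 15.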

Other observations

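Genes that overlap the members in the annotation were read along with them, and without a stated strand setting their reads cannot be told from those of the members. Olfr56, whose model spans Tgtp1, Tgtp2 and Ifi47, Gm12185 in Tgtp1 and Gm5970 in Gm4951 are such genes. Gm12185 lay between 0 and 0.60 CPM in the control mice and between 11.8 and 38.6 in TCT mice, 13.2 and 19.8 in IL-10 blockade and 11.3 and 17.2 in anti-CD40. In DSS and DNBS its highest values were 23.7 and 22.4 CPM and its lowest 1.23 and 0.47.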
